A study of Mus musculus with 6 samples.

Results

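ATP-binding cassette (ABC) transporters of subfamilies A, B, C, D and G were examined in primary mouse hepatic stellate cells exposed to obeticholic acid (OCA). Members were the genes whose symbol consists of Abc, a letter from a to d or g, a number and at most 1 further letter, without Abcb11. The rule found 45 genes among the 24940 of the count table. The 43 described here are called the members, and 29 of the 43 had enough counts to be tested. The study measured polyadenylated RNA of hepatic stellate cells, liver pericytes that store vitamin A, in 6 libraries. The cells came from female mice of the strain C57BL/6JBomTac and were used 2 days after isolation. For 3 libraries (OCA A, B and C) they received 10 µM OCA, a synthetic derivative of chenodeoxycholic acid and an agonist of the bile acid receptor FXR, for 6 hours. For the other 3 (DMSO A, B and C) they received the vehicle dimethyl sulfoxide (DMSO) for the same time. Both groups were thus isolated and cultured cells of 1 strain and 1 sex, with no untreated group.

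Most ABC transporters of these subfamilies are membrane proteins that use ATP to move lipids, bile acids, drugs, metal complexes or metabolites out of the cytosol or into organelles. Abca1 and Abcg1 pass cholesterol and phospholipid to lipoproteins and are textbook targets of the oxysterol receptor LXR. Abcb1, Abcb4 and several Abcc proteins export drugs, phospholipid, conjugates or bile acids, and Abcb4 and Abcc2 are textbook FXR targets in hepatocytes. Abcd proteins carry fatty acyl-CoA esters into peroxisomes or vitamin B12 out of lysosomes. Abcc8 and Abcc9 transport nothing themselves: they are the sulfonylurea receptor subunits of ATP-sensitive potassium channels, and Abcc9 is widely used as a marker of pericytes.

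Whether the libraries within a group derive from different mice or dishes is not stated in the labels. The p-values therefore measure only how these libraries varied, which may be technical. Library totals ranged from 12260882 to 16336240 counts. All 10 stellate cell markers examined were tested, with a summed level of 507 to 562 CPM per kilobase in the DMSO libraries and 544 to 575 in the OCA libraries. CPM denotes counts scaled to a common library total, on library sizes scaled by the TMM method of edgeR. The summed level of 10 hepatocyte markers was 1.70 to 2.43 CPM per kilobase under DMSO and 1.52 to 4.72 under OCA, and that of 8 macrophage markers 3.99 to 6.77 and 4.28 to 5.54. The 6 cholangiocyte markers summed to 4.56 to 5.65 and 4.89 to 5.53, the 8 endothelial markers to 1.05 to 1.44 and 1.29 to 1.86, the 6 markers of portal fibroblasts or smooth muscle to 6.65 to 7.41 and 6.15 to 6.51, and the 5 lymphocyte markers to at most 0.03 in any library. The markers Krt7, Cftr, Tat, Thy1, Mfap4, Cd3g, Ms4a1 and Nkg7 had no count in any library. One cholangiocyte marker, Sox9, a transcription factor gene, rose from 2.52 ± 0.857 to 7.69 ± 2.45 CPM (SD, n = 3 each, log2 fold change 1.60, edgeR adjusted p = 0.00322). With it the cholangiocyte markers summed to 8.36 to 9.54 CPM under DMSO and 11.3 to 14.9 under OCA when not divided by length, and the part of this in the results was not tested. On the same list Spp1 moved the other way, from 5.75 ± 0.686 to 4.18 ± 0.603 CPM (log2 fold change -0.46, edgeR adjusted p = 0.332). Of the 3 cholangiocyte markers tested, 2 had a log2 fold change above 0 and 1 below. DMSO A stood apart from the rest by transcript length, and the DMSO and OCA groups also differed in the sign of this trend. Relative to the mean of the 6 libraries, its genes of at least 6000 bases lay 0.25 higher on the log2(CPM + 1) scale than its genes below 2000 bases, against 0.04 in DMSO B, 0.01 in DMSO C and -0.12, -0.02 and -0.16 in OCA A, B and C. ABC transporter transcripts are long, with a median of 5575 bases among the 29 tested members against 2933 among all tested genes, so values without this library are given beside those of the members on which the results turn.

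The promoter windows of the 2 members that fell under OCA are shown here because the remainder of the description turns on these genes. Both come from RefSeq on GRCm38.p6, the assembly also called mm10, run from 250 bases before to 50 bases after the annotated start, and are printed 5′ to 3′ on the strand of the gene. The Abca1 window spans chr4:53159846-53160145 on the minus strand. Capitals mark the E-box CACGTG and the sequence TGACCNNNNNTAACC, a spelling written to match the direct repeat known as the LXR element of this promoter. The Abcc9 window spans chr6:142702225-142702524, also on the minus strand, and capitals mark the A/T-rich sequence CTAAAAATA.
Abca1: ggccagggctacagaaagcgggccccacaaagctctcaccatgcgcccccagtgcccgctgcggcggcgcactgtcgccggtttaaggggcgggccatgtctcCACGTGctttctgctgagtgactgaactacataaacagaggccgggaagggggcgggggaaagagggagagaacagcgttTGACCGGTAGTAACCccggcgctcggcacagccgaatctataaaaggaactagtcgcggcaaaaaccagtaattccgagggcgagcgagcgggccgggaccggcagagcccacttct
Abcc9: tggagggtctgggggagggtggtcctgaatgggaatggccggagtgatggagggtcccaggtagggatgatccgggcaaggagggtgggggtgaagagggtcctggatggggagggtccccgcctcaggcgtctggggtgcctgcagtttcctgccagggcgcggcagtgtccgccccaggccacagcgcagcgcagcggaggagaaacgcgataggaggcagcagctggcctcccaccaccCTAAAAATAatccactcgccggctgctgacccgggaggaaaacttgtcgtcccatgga

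All motifs were searched on both strands, and these 3 spellings were chosen after the sequences had been read. Of 32851 promoter windows in the table, 0.0487% held TGACCNNNNNTAACC, 7.15% held CACGTG and 0.517% held CTAAAAATA. The hexamer AGGTCA, the core bound by many nuclear receptors, was present in 16.3% of all windows and in neither of the 2 printed. Its direct repeat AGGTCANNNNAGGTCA (0.0152% of windows) and its inverted repeat AGGTCANTGACCT (0.00913%), in these exact letters, were in no member's window. Windows were given for 33 of the 43 members and 22 of the 29 tested. Among them Abcb6, Abcg2, Abcc10 and Abcc2 held AGGTCA. The 33 members had 39 windows, and a window need not belong to the counted transcript. The Abcg2 windows with AGGTCA (chr6:58584283-58584582 and chr6:58640296-58640595) do not cover the start of its counted transcript at chr6:58596672. The CACGTG sequence was also found in the windows of Abca15, Abca8a, Abca8b and Abcc4.

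Under OCA, 2 of the 29 tested members fell (Abca1 and Abcc9) and 27 did not pass the test. The test was the quasi-likelihood test of edgeR, adjusted by Benjamini-Hochberg over all 12687 tested genes, with a threshold of 0.05. Over all tested genes the same test called 2.18% higher and 3.03% lower, so the count of 2 among 29 members lies near that background. An unadjusted p under 0.05 was found for 4 of the 29 members (13.8%) against 19.0% of all tested genes. The log2 fold change of OCA over DMSO was below 0 in 20 of the 29 members (69.0%) against 49.8% of all tested genes, with a median of -0.07 against 0.00. Groups without overlap were found with all OCA libraries above in 4 members (Abcb6, Abca8b, Abca8a and Abcd2) and below in 2 (Abcc9 and Abca1). Of all tested genes, 11.6% had all OCA libraries above and 11.3% all below. In bulk RNA, fewer cells that express a gene and less RNA per cell cannot be told apart.

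The lean of the members to values below 0 moved with transcript length and with DMSO A. Among all tested genes of at least 6000 bases the median log2 fold change was -0.15 and 13.2% were called lower, against 0.08 and 0.407% among genes below 2000 bases. The 9 members of at least 6000 bases had a median of -0.13, the 13 members from 4000 to 6000 bases a median of -0.09 where all tested genes of that length had -0.06, and the 7 from 2000 to 4000 bases -0.05 where all had 0.01. DMSO A was the highest DMSO library in 17 of the 29 members (58.6%) and in 35.9% of all tested genes. When a length trend was removed from each library, the test called 2.98% of all genes higher and 1.79% lower (378 and 227 genes against 276 and 384). The median of the members was then -0.0048, against 0.0168 over all tested genes. Of the members, 13 lay above 0 and 16 below, where 45.6% of all tested genes lay below. In this fit the test called 1 member higher (Abcb6) and 0 lower. Without DMSO A the median of the members was -0.01, with 13 members above 0 and 16 below, where 50.1% of all tested genes lay below. Measured from the mean of the 6 libraries, the length trend was above 0 in the DMSO and below 0 in the OCA libraries. It was small in DMSO B, DMSO C and OCA B (0.04, 0.01 and -0.02), and the shared mean ties the signs together. Removing the trend would also remove an OCA difference that follows length. The part of transcript length or of library quality in these differences was not tested.

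**Figure D1:**
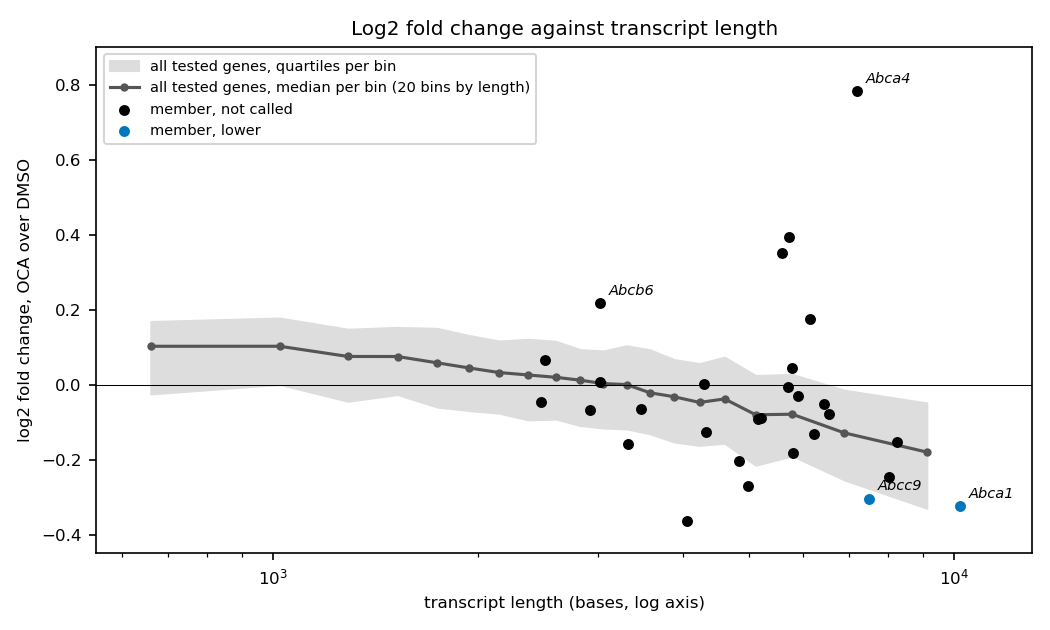
Log2 fold change of OCA over DMSO (vertical) against transcript length in bases (horizontal, log axis). The grey line and band give the median and quartiles of all tested genes in 20 bins of length. Points are the 29 tested ABC transporters, with Abcb6 (0.22) above the band and Abca1 (-0.32) and Abcc9 (-0.30) at the long end. The lower quartile was -0.33 in the bin of length that holds Abca1 and -0.25 in the bin that holds Abcc9.

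Levels of the members spanned a wide range. The tested members had means from 0.860 to 443 CPM over the 6 libraries, and 18 of the 29 reached 10 CPM. Per transcript length, Abcc1 (Mrp1, an exporter of glutathione conjugates and leukotrienes) was highest under DMSO at 75.9 ± 3.43 CPM per kilobase (SD, n = 3). It was followed by the porphyrin transporter Abcb6 (29.6 ± 0.734), the drug and urate exporter Abcg2 (29.0 ± 1.76) and the peroxisomal half-transporter Abcd3 (25.8 ± 0.993). Abcb6 and Abcg2 differed by less than their spread. Abcc9 came next at 22.0 ± 1.29 CPM per kilobase, Abcg1 ranked 10 at 11.7 ± 1.31 and Abca1 ranked 13 at 6.32 ± 0.812. The median coefficient of variation over the tested members was 8.67% in the DMSO group and 12.4% in the OCA group.

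**Figure D2:**
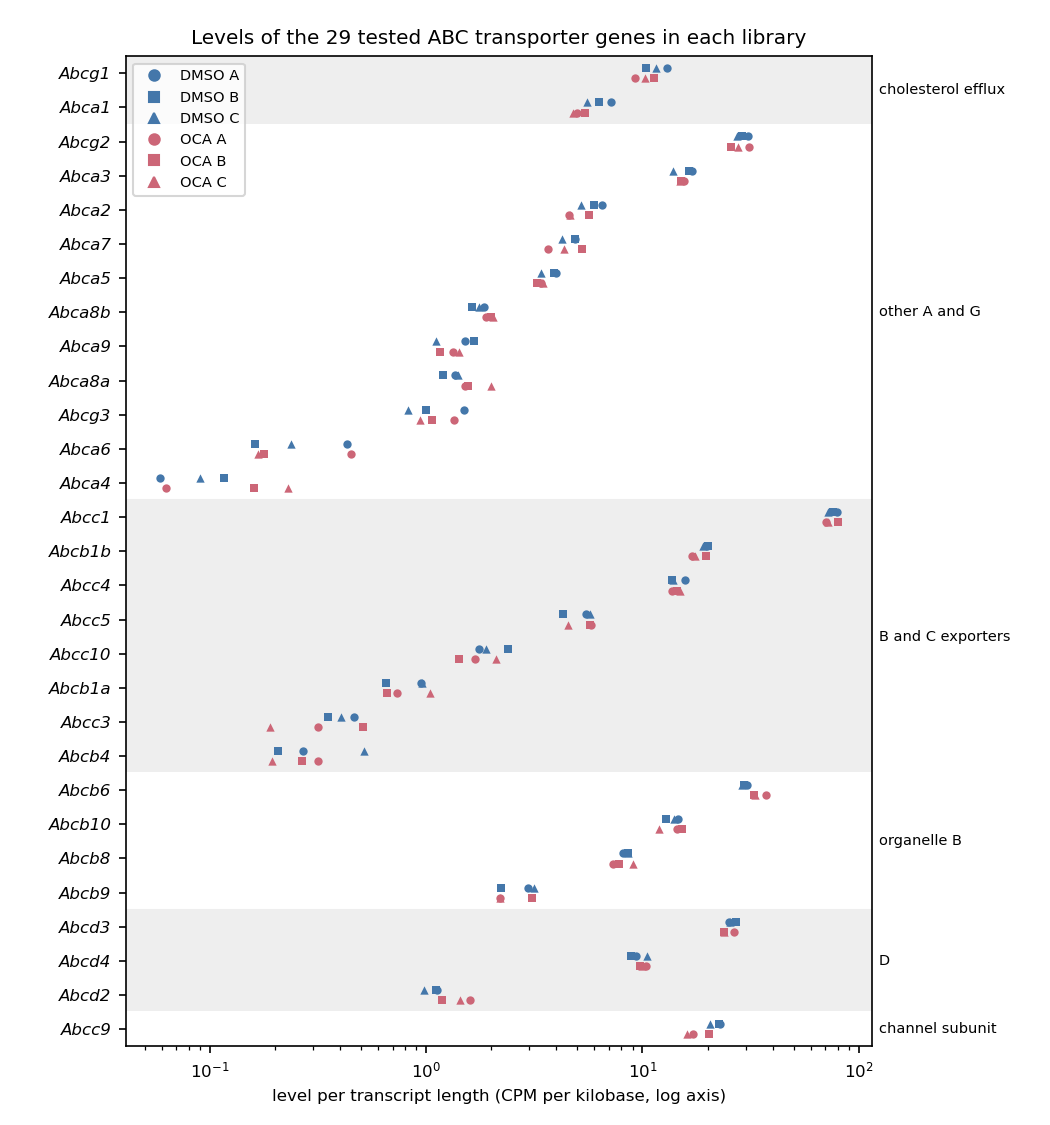
Level of each of the 29 tested ABC transporters in CPM per kilobase of transcript (horizontal, log axis), with blue DMSO and red OCA libraries and a marker shape for each library letter, grouped by role. Abcc1 stands highest in all 6 libraries, and Abca4, Abca6, Abcb4 and Abcc3 stand below 1 CPM per kilobase in all of them.

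The 14 members that were not tested had between 1 and 33.5 counts summed over the 6 libraries, and 10 of them had 10 or fewer. They included the canalicular conjugate exporter Abcc2, with 6.5, 6.5 and 11.5 counts in DMSO A, B and C and 2.5, 0.5 and 6 in OCA A, B and C. The sterol transporter genes Abcg5 and Abcg8, whose products act as a pair in hepatocytes and enterocytes, had 4.5 and 1.5 counts under DMSO and 4 and 3 under OCA. Abcg4, the close relative of Abcg1, had 12.5 counts under DMSO and 15 under OCA, and all 15 came from OCA B. Abca17 had 9 and 5.5, Abca13 had 7.5 and 5.5, and Abca14 had 2 and 2. Under OCA no count was listed for Abca12 (3 under DMSO), Abcc6 (1.5) and Abca15 (1.5), and under DMSO none for Abcc12 (3 under OCA), Abcb5 (1.5), Abcc8 (1) and Abca16 (1). A floor of 3 counts corresponds to 0.184 to 0.245 CPM in a single library, and most of these genes lay at or under it in most libraries. This floor covers counting error only.

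Of the 2 cholesterol efflux members, Abca1 fell and Abcg1 did not pass the test. Abca1 (transcript NM_013454, mm10 chr4:53030789-53159895, minus strand) moves cholesterol and phospholipid to lipid-poor apolipoprotein A-I. Its level was 73.0, 64.1 and 56.5 CPM in DMSO A, B and C and 50.6, 55.5 and 48.5 in OCA A, B and C. Every OCA value was lower than every DMSO value, with OCA B within 1 CPM of DMSO C. The log2 fold change was -0.32 (SE 0.09, 95% interval -0.52 to -0.13, edgeR adjusted p = 0.0464).

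The Abca1 call, close to the threshold, was lost under several settings. Without DMSO A, the library in which Abca1 was highest, the log2 fold change was -0.22 (edgeR adjusted p = 0.292), and with the length trend removed it was -0.14 (adjusted p = 0.325). The log2 fold change was closer to the reported value, and the call also lost, without OCA A (-0.31, adjusted p = 0.15), without OCA C (-0.29, 0.182), without DMSO B (-0.33, 0.104) and with limma-voom (-0.32, 0.0566). Without both OCA B and DMSO A it was -0.28 (0.0554).

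Abcg1 (NM_009593, chr17:31057694-31117981, plus strand) hands cholesterol to mature high-density lipoprotein. Its level was 75.4, 60.2 and 67.2 CPM in DMSO A, B and C and 53.7, 65.9 and 59.4 in OCA A, B and C. The groups overlapped, since OCA B lay above DMSO B. The log2 fold change was -0.18 (SE 0.09, 95% interval -0.38 to 0.01, edgeR adjusted p = 0.286). It was -0.10 without DMSO A, -0.11 without OCA A and -0.09 with the length trend removed, and -0.26 without OCA B or without DMSO B.

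None of the 22 tested genes of 23 on a list of LXR targets and cholesterol-handling genes passed edgeR's test, and 5 (22.7%) had an unadjusted p under 0.05, against 19.0% of all tested genes. DESeq2 and limma-voom also called 0 of the 22. The most abundant were the desaturase gene Scd2 (log2 fold change -0.03), the sterol regulator Srebf2 (0.11), the lipoprotein lipase gene Lpl (-0.24, adjusted p = 0.0751) and the lipoprotein receptor gene Scarb1 (0.17). Without OCA B and DMSO A, 3 of the 22 were called lower, namely Apoe, Lpl and Pltp, and with the length trend removed 1 was, Apoe.

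**Figure D3:**
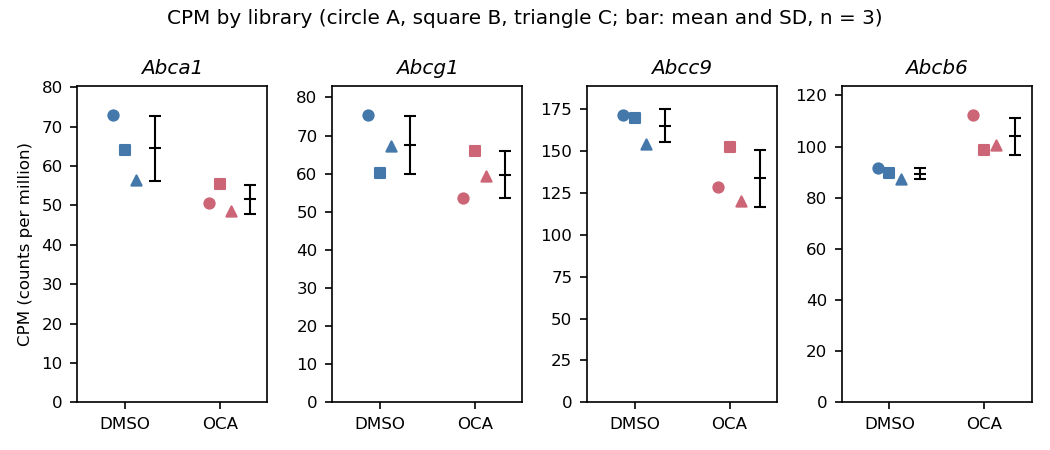
CPM of Abca1, Abcg1, Abcc9 and Abcb6 (vertical, from 0) in each library, with circles for A, squares for B and triangles for C, and the mean and SD of 3 libraries beside them. The groups do not overlap for Abca1, Abcc9 and Abcb6, and overlap for Abcg1.

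The channel subunit gene Abcc9 (NM_021041, chr6:142587862-142702274, minus strand) fell under OCA. Its level was 172, 169.6 and 154 CPM in DMSO A, B and C and 128, 152 and 120.0 in OCA A, B and C. No OCA library reached the DMSO libraries, although OCA B lay within 2 CPM of DMSO C. The log2 fold change was -0.30 (SE 0.08, 95% interval -0.47 to -0.14, edgeR adjusted p = 0.0319). With the length trend removed it was -0.18 (adjusted p = 0.167). The call was also lost, with values nearer the reported one, in 4 fits: -0.28 without OCA A (adjusted p = 0.146), -0.24 without OCA C (0.18), -0.27 without DMSO A (0.136) and -0.28 without DMSO B (0.0932). Without both OCA B and DMSO A the call held at -0.38. Of the exonic bases of Abcc9, 1.89% overlap 5330439B14Rik on the opposite strand, a gene with a mean of 2.98 CPM. The sources used here do not give the strand setting of the counts, so reads of the 2 genes cannot be told apart there.

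The pore gene Kcnj8, which lies at chr6:142564837-142571614, near Abcc9, and was singled out after its values were seen, did not pass the test. Its level was 44.1 ± 3.42 CPM under DMSO and 41.1 ± 4.41 under OCA (SD, n = 3 each), with a log2 fold change of -0.10 (edgeR adjusted p = 0.623). Per transcript length Kcnj8 stood at 0.756 to 1.13 times the level of Abcc9 over the 6 libraries, highest in OCA C. Against 3.03% of all tested genes called lower, 1 of 6 tested genes on a list of channel pores, modulators and pericyte markers passed. This was Rgs5, a regulator of G-protein signalling and itself a pericyte marker, which fell from 61.6 ± 6.27 to 45.7 ± 8.95 CPM (log2 fold change -0.43, edgeR adjusted p = 0.0326). It no longer passed when OCA A (adjusted p = 0.0921), OCA C (0.168), DMSO A (0.183) or DMSO B (0.105) was left out, or with robust estimation (0.0571). Rgs5 is also among the 10 stellate cell markers above, of which 1 rose (Pth1r) and 2 fell (Reln and Rgs5). Of all tested genes, 2.18% were called higher and 3.03% lower. The unadjusted edgeR p was under 0.05 for 6 of the 10 markers (60%), against 19.0% of all tested genes. Of the 10, 7 had a log2 fold change above 0, with a median of 0.16, and in 5 (Colec11, Cygb, Des, Lrat and Pth1r) all OCA libraries lay above all DMSO libraries. In 2 (Reln and Rgs5) all OCA libraries lay below. Over all tested genes the shares were 11.6% above and 11.3% below. Reln stood at 632, 508 and 502 CPM in DMSO A, B and C, with a log2 fold change of -0.75. In OCA A, B and C it stood at 261, 489 and 225 CPM, with OCA B close to DMSO C.

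None of the 8 tested plasma membrane exporters of the Abcb and Abcc subfamilies passed edgeR's test, none had an unadjusted p under 0.05, and DESeq2 and limma-voom also called 0 of the 8. The log2 fold change was below 0 in 7 of them, with a median of -0.11. For the abundant exporters the intervals were narrow. Abcc1 was measured at 467, 450.4 and 426 CPM in DMSO A, B and C and at 419, 471 and 425 in OCA A, B and C, and the groups overlapped. Its log2 fold change was -0.03 (95% interval -0.18 to 0.12). Abcc4 (Mrp4, a basolateral exporter of bile acids and cyclic nucleotides) stood at 89.6, 78.2 and 78.7 CPM under DMSO and 78.3, 82.2 and 85.3 under OCA. Its log2 fold change was -0.01 (interval -0.16 to 0.15). Without DMSO A these 2 genes gave 0.00 and 0.06. Abcb1b, one of the P-glycoprotein genes, gave -0.13 (interval -0.28 to 0.03) and Abcc5, an exporter of cyclic nucleotides and haem, 0.04 (interval -0.21 to 0.30).

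For the scarce exporters the data allowed wide ranges. Abcb4, the phosphatidylcholine floppase of the bile canaliculus, stood at 1.09, 0.836 and 2.08 CPM in DMSO A, B and C and at 1.28, 1.07 and 0.785 in OCA A, B and C. Its log2 fold change of -0.36 had an interval of -1.38 to 0.65. Abcc3 (Mrp3, a basolateral conjugate exporter) stood at 2.29, 1.76 and 2.02 CPM under DMSO and 1.58, 2.53 and 0.942 under OCA. The groups overlapped for both genes, and the log2 fold change of Abcc3 was -0.27 (interval -1.14 to 0.60). Abcc10 (-0.20, interval -0.63 to 0.22) and Abcb1a (-0.09, interval -0.69 to 0.50) did not pass the test either.

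Near-relatives among the exporters stood at very different levels. Abcb1a, Abcb1b and Abcb4 lie side by side on chromosome 5, at chr5:8567091-8748575, chr5:8798147-8866314 and chr5:8893721-8959226, all on the plus strand. Per transcript length Abcb1b stood at 16.8 to 30.8 times the level of Abcb1a over the 6 libraries. Reads of these paralogs are uncertain, since 17.0% of the 50-base stretches of Abcb1a and 18.3% of those of Abcb1b also occur in another gene. Abcc4 stood at 28.3 to 78.9 times the level of Abcc3 and Abcc1 at 4.81 to 5.56 times that of Abcc4, per transcript length. The widest of these ratios was in OCA C, where Abcc3 had 11.5 counts.

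A list of bile acid carriers outside the ABC family and related solute carriers held 14 genes. Of these, 9 had too few counts to be tested, among them Slc10a1, Slc10a2, Slc51a and Slc51b. Of the 5 tested (Slco2a1, Slco2b1, Slco3a1, Slc10a3 and Slc10a7), 1 rose, against 2.18% of all tested genes called higher. This was Slco3a1, an organic anion transporter, which rose from 241 ± 13.6 to 331 ± 5.62 CPM (SD, n = 3 each, log2 fold change 0.46, edgeR adjusted p = 0.00023) and kept its call in all 18 alternatives. Of 17 tested genes among 20 xenobiotic receptors, oxidative stress genes and conjugating enzymes linked to Abcc induction, edgeR, DESeq2 and limma-voom called 0. An unadjusted edgeR p under 0.05 was found for 3 of the 17 (17.6%), against 19.0% of all tested genes. The most abundant of the 17 were Txnrd1 (log2 fold change 0.04), Hmox1 (0.09), Srxn1 (0.05) and Cyp1b1 (-0.14).

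Among peroxisomal and lysosomal transporters, Abcd2, which carries very long-chain fatty acyl-CoA into peroxisomes, stood at 6.40, 6.36 and 5.60 CPM in DMSO A, B and C and 9.16, 6.75 and 8.16 in OCA A, B and C. Its groups did not overlap, and the log2 fold change was 0.39 (interval -0.05 to 0.83, edgeR adjusted p = 0.326). Abcd3, which also carries bile acid precursors and branched-chain acyl-CoA into peroxisomes, gave -0.07 (interval -0.21 to 0.08). The lysosomal Abcd4, which acts with Lmbrd1 in vitamin B12 export, gave 0.07 (interval -0.17 to 0.30). Of 13 tested partner genes of peroxisomes and of Abcd4, edgeR, DESeq2 and limma-voom called 0. The unadjusted edgeR p was under 0.05 for 2 of the 13 (15.4%), against 19.0% of all tested genes. The most abundant of the 13 were Hsd17b4 (log2 fold change 0.00), Lmbrd1 (0.00), Pex19 (0.07) and Pex5 (0.04).

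None of the 4 organelle Abcb members passed edgeR's test, and DESeq2 and limma-voom called 0. An unadjusted edgeR p under 0.05 was found for 1 of the 4, against 19.0% of all tested genes. That gene, Abcb6 (NM_023732, chr1:75171641-75180392, minus strand), transports porphyrins. It stood at 91.6, 89.5 and 87.2 CPM in DMSO A, B and C and at 112, 98.8 and 101 in OCA A, B and C. All OCA libraries lay above all DMSO libraries, OCA A by the most, and the log2 fold change was 0.22 (SE 0.07, 95% interval 0.07 to 0.36, edgeR adjusted p = 0.082). It passed with the length trend removed (adjusted p = 0.0447), without OCA B (0.037) and without both OCA B and DMSO A (0.0141). It did not pass when a DMSO library was dropped (0.24, 0.22 and 0.20 without A, B and C, adjusted p = 0.144, 0.146 and 0.237), nor without OCA A (0.16, 0.327) or OCA C (0.24, 0.151). In GENCODE M21, 90.3% of the 50-base stretches of Abcb6 also occur in the overlapping Gm29253 on the same strand, so the reads cannot be assigned to Abcb6 alone.

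The mitochondrial member Abcb10, which is needed for haem synthesis, gave a log2 fold change of 0.00 (interval -0.19 to 0.19). Abcb8 gave -0.07 and the lysosomal peptide transporter Abcb9 -0.16, with overlapping groups in both. Of 16 tested genes of mitochondrial haem and iron-sulfur metabolism, 0 were called higher and 2 lower, against 2.18% and 3.03% of all tested genes. In 8 (50%) the unadjusted edgeR p was under 0.05, against 19.0% of all tested genes. The log2 fold change was above 0 in 8 of the 16 and below 0 in 8. All OCA libraries lay above all DMSO libraries in 2 and below in 5, against 11.6% and 11.3% of all tested genes. Slc25a37 (mitoferrin 1), the mitochondrial iron importer that Abcb10 is known to bind, fell from 31.4 ± 0.731 to 21.4 ± 3.15 CPM (SD, n = 3 each). Its log2 fold change was -0.55 (edgeR adjusted p = 0.00723), and it kept its call in all 18 alternatives. Ireb2, an RNA-binding regulator of iron genes, fell from 84.6 ± 8.03 to 67.7 ± 5.74 CPM (-0.32, adjusted p = 0.0288). It no longer passed with the length trend removed (adjusted p = 0.0792), nor without OCA A (0.158), without OCA C (0.0605), without DMSO C (0.118) or without DMSO A (0.158). Without OCA B and DMSO A the list held 4 lower genes (Alas1, Cpox, Ireb2 and Slc25a37).

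The other members of subfamilies A and G gave no call among 11 tested by edgeR, DESeq2 or limma-voom. Of the 11, 1 (9.09%) had an unadjusted edgeR p under 0.05, against 19.0% of all tested genes. That gene, Abca2, a lipid transporter of late endosomes and lysosomes, stood at 52.3, 47.7 and 41.6 CPM in DMSO A, B and C and at 36.8, 45.5 and 36.9 in OCA A, B and C. OCA B overlapped the DMSO libraries. The log2 fold change was -0.25 (interval -0.47 to -0.03, edgeR adjusted p = 0.197), and without OCA B the gene was called lower (-0.36, adjusted p = 0.028). It was -0.16 without DMSO A (0.604) and -0.11 with the length trend removed (0.582). Abcg2 stood at 76.3, 71.0 and 67.7 CPM under DMSO and 76.6, 63.4 and 68.1 under OCA, with a log2 fold change of -0.05 (interval -0.22 to 0.12). Abca3, which loads phospholipid into lamellar bodies, gave -0.05 (interval -0.21 to 0.11), Abca5 -0.15 (-0.37 to 0.06) and Abca7 -0.08 (-0.33 to 0.17).

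Abca5, Abca6, Abca8a, Abca8b and Abca9 form a cluster on the minus strand of chromosome 11. Abca8a stood at 7.60, 6.69 and 7.81 CPM in DMSO A, B and C and at 8.41, 8.74 and 11.1 in OCA A, B and C, and its neighbour Abca8b at 11.4, 10.0 and 10.8 and at 11.6, 12.3 and 12.6. Neither overlapped between groups and neither passed the test, with log2 fold changes of 0.35 (interval -0.06 to 0.76) and 0.17 (interval -0.16 to 0.50). Abca9 in the same cluster gave -0.13 and Abca6 -0.09 with an interval of -1.14 to 0.96. The photoreceptor transporter Abca4 had the highest log2 fold change of any tested member, 0.78, on 26.5 counts under DMSO and 41.5 under OCA, with an interval of -0.41 to 1.98 and overlapping groups. The rodent gene Abcg3 gave 0.01 (interval -0.66 to 0.67).

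**Figure D4:**
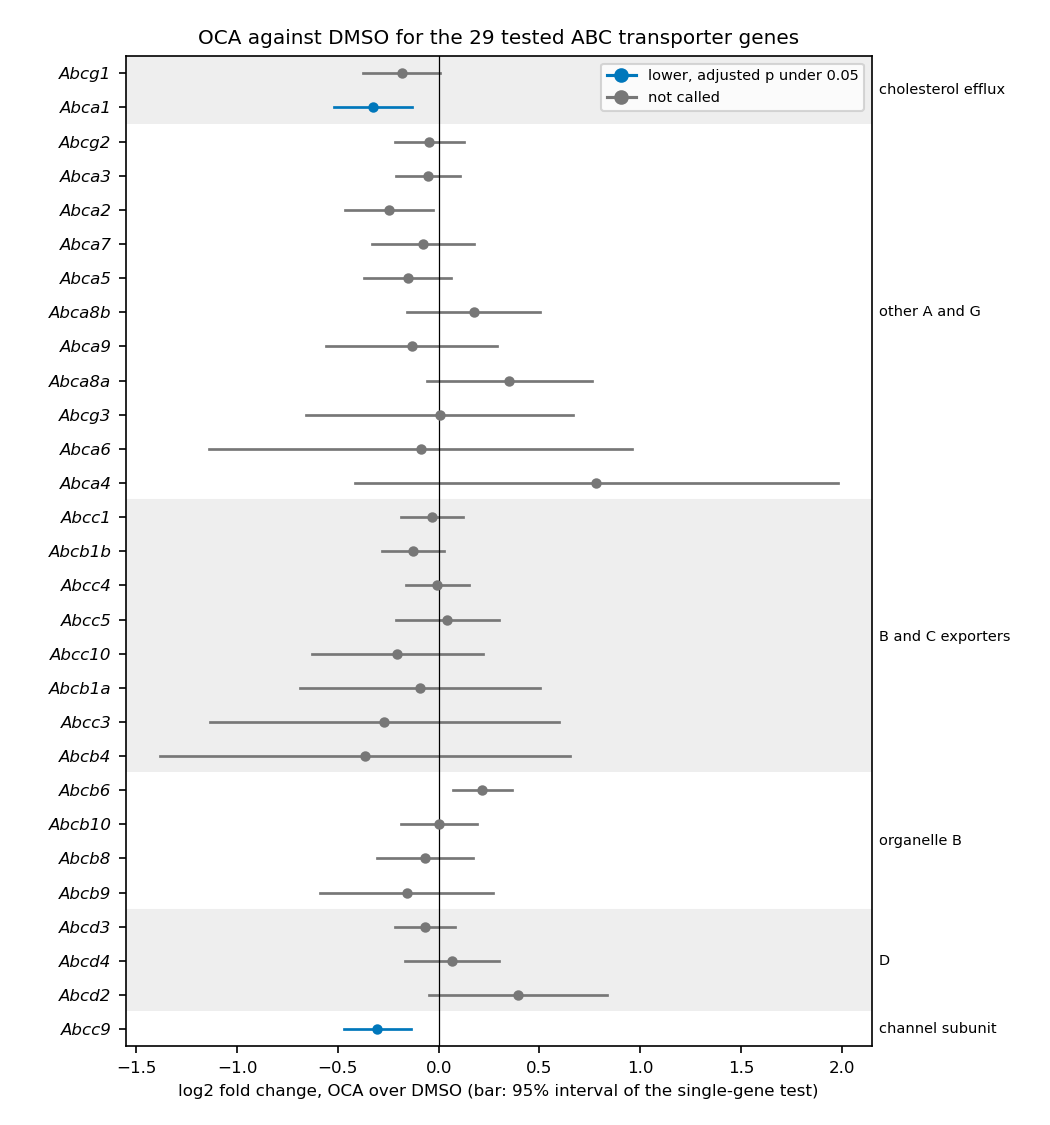
Log2 fold change of OCA over DMSO for the 29 tested ABC transporters (horizontal), with bars for the 95% interval of each gene's own test, grouped by role. Abca1 and Abcc9 are called lower, and the widest intervals belong to the scarce genes Abca4, Abca6, Abcb4 and Abcc3.

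In 16 of the 29 tested members the whole 95% interval lay between -0.5 and 0.5 on the log2 scale. For comparison, 6 of 7 ABC-fold genes outside the symbol rule were tested, and edgeR, DESeq2 and limma-voom called 0 of them, with none at an unadjusted p under 0.05. The most abundant were the ribosome recycling factor gene Abce1 (log2 fold change 0.02), Abcf1 (0.09) and Abcf2 (0.07), which carry no membrane domain, and the peptide transporter subunit gene Tap1 (0.13).

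**Figure D5:**
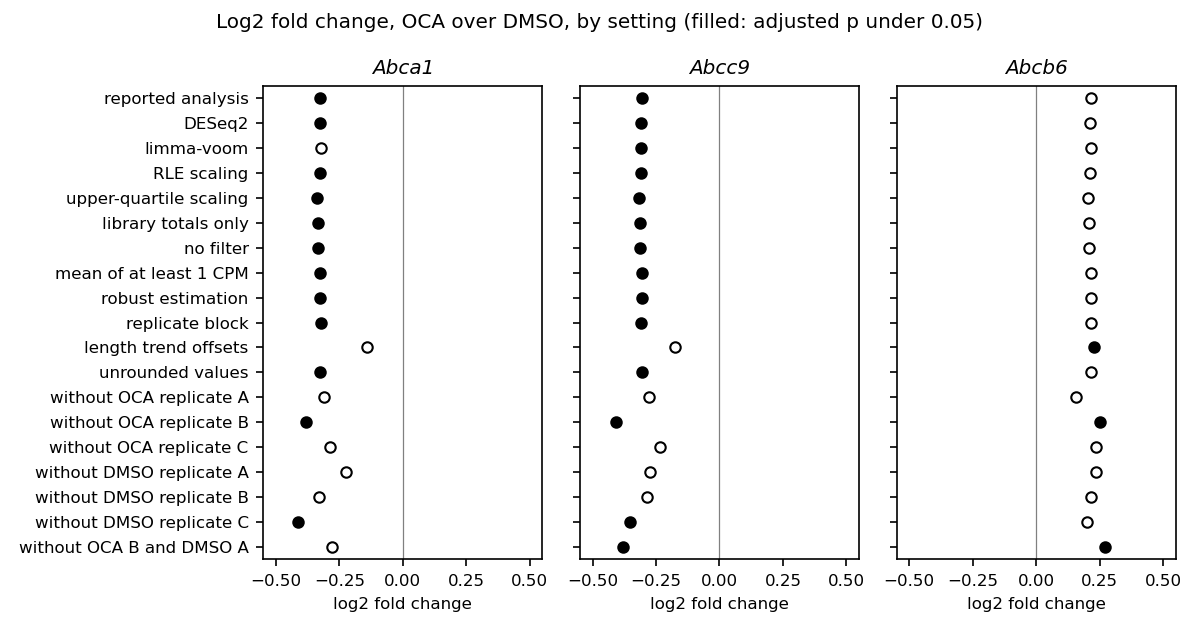
Log2 fold change of OCA over DMSO (horizontal) of Abca1, Abcc9 and Abcb6 in the reported analysis and 18 alternatives (rows), filled where the adjusted p is under 0.05. The direction is the same in every row, and Abca1 and Abcc9 lie closest to 0 with the length trend removed (-0.14 and -0.18).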

How the data were processed

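RNA of 6 libraries (3 OCA, 3 DMSO) was sequenced from NEBNext Ultra libraries, per the labels' protocols. Per the submitters' processing notes, STAR, HOMER and mm10 were used, with no version given. The authors deposited 1 table of exon counts per gene, 24940 rows with transcript coordinates and lengths, per the file headers. The deposited values come in steps of 0.5 (26.5% to 29.8% not whole), so they were treated in the way of expected counts and rounded to whole numbers, ties to even. No symbol was repeated, and 0 count columns were left out. Columns were assigned by sample title. Within groups, libraries differed beyond sampling noise (chi-square per degree of freedom 4.3 to 7.78).

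The test was edgeR 4.0.16 in R 4.3.3 (filterByExpr, minimum count 10, TMM, glmQLFit, glmQLFTest, two-sided, no block), with Benjamini-Hochberg adjustment over 12687 genes and a threshold of 0.05. The common biological coefficient of variation was 7.98%. SEs and 95% intervals come from the test's F value. Unadjusted p was under 0.05 for 2405 genes. Alternatives were DESeq2 1.42.0, limma-voom (limma 3.58.1), 3 scalings, 2 filters, robust estimation, a replicate block, unrounded values, offsets from a loess curve on log transcript length (span 0.5) and leaving out each library. A fit leaving out both OCA B and DMSO A was added after the data had been seen. The script was tested on simulated data.

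Of the 45 genes of the rule, 2 are not reported here and were left out of every count and median over members. Members, role lists and partner lists were chosen with earlier results of these data known. Every member could be named, and from each partner list the genes that passed or, where none did, up to 4 of the highest mean CPM. Further genes on the list of bile acid carriers were named beyond this rule. Promoter windows are RefSeq's on GRCm38.p6, and exon overlap and shared 50-base stretches come from GENCODE M21.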

Additional observations from a re-analysis of the deposited data

How the results depend on the processing

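Over 18 alternatives no called member changed direction. Members called lower numbered 2 in the reported analysis, 1 with limma-voom, 0 with the length trend removed, 1 without OCA B and DMSO A, and 0 to 3 when a single library was left out. Members called higher numbered 0 in the reported analysis, with DESeq2 and with limma-voom, 1 with the length trend removed, 1 without OCA B and DMSO A, and 0 to 1 with a library left out; the 1 was Abcb6 each time. All genes called lower numbered 384, against 703 without a filter, 227 with the length trend removed, 605 without OCA B and DMSO A, and 104 to 758 with a library left out. Genes called higher numbered 276, against 161 to 363 with a library left out. The median log2 fold change of the members, -0.07, was -0.0048 with the length trend removed, -0.028 without OCA B and DMSO A, and -0.0789 to -0.0086 with a library left out. Of the 27 members not called, 25 were called in no alternative, and Abcb6 and Abca2 in at least 1. The values of 12 of them changed sign in some alternative, 42 times in all, among them those of the scarce genes Abcb4, Abcc3 and Abca6. With a replicate block, 306 genes were higher and 508 lower and the same 2 members were called. Letters do not mark a shared source in the labels, and deviations of OCA and DMSO libraries of the same letter correlated at 0.000511, -0.0433 and 0.0535. Groups of 3 libraries are too small to test for an outlying library, and depth limits the 6 tested members with a mean under 5 CPM, whose 95% intervals span more than 1 on the log2 scale.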
